A study of Mus musculus with 12 samples.

Results

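The genes of alpha-fetoprotein and other fetal hepatocyte products, with albumin and the genes of postnatal alpha-fetoprotein repressors, were followed in livers of mice that lack Lcorl, a gene named for its likeness to the nuclear corepressor gene Lcor. The set holds 9 of the 17714 genes in the deposited table, and all 9 had a mean of at least 10 normalized counts and were tested. They are 5 fetal genes (Afp, Gpc3, Igdcc4, Bex1 and Cd24a), Alb, and 3 repressor genes (Zhx2, Zfhx3 and Zbtb20). They were chosen by name with the levels in KO and WT livers already known, so the difference between KO and WT in these 9 genes is given as a description, with no test. The groups were Lcorl KO, made as a global knockout (6 livers), and WT (6 livers). All 12 were livers of female mice taken at weaning, at 3 weeks of age, around 10 am, and total RNA was sequenced, with 1 library for each animal. The sources used here do not give the strain or the number of knockout lines.

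Alpha-fetoprotein is the main transport protein of fetal blood, made by yolk sac and fetal hepatocytes, and albumin, its relative, takes over that place as the liver matures. In the mouse the Afp gene is shut down after birth. Zhx2, a homeobox and zinc finger protein, Zfhx3, a large protein of the same broad kind, and Zbtb20, a zinc finger protein that binds near the Afp start, are known repressors of Afp, and mice with a weak Zhx2 allele keep Afp in the adult liver.

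Depth was 27692285 to 31296485 reads in KO and 21769795 to 28655120 reads in WT. Lcorl held 3 reads over the 6 KO libraries, all from KO 5, against 1594 over the 6 WT libraries. Of 13569 genes tested with limma on log2(normalized count + 1), 4.43% passed an adjusted p of 0.05, 1.75% higher and 2.68% lower in KO. An unadjusted p under 0.05 was found for 23.4% of them, and 51.8% had a log2 difference above 0. That number depended on single livers: it was between 224 and 933 genes when 1 library was left out, against 601 with all 12. The hepatocyte list without Alb summed to between 985630 and 1424484 normalized counts in KO and between 997260 and 1061361 in WT. WT 6 held 202 normalized counts summed over fat genes, against at most 3.11 in the other livers. KO 4 held 5600.03 summed over neutrophil genes, against at most 1436 in the other livers.

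Afp and Alb lie side by side on chromosome 5 of GRCm38, as protein-coding genes on the plus strand, Alb at 90460897 to 90476602 and Afp at 90490737 to 90508907 (GENCODE M21), with 14134 bases between them. Gpc3 (52272426 to 52613950) and Bex1 (136213972 to 136215513) are on the minus strand of chromosome X, and Igdcc4 (65101486 to 65137940) is on the plus strand of chromosome 9. Cd24a (chromosome 10, 43578284 to 43584265), Zfhx3 (chromosome 8, 107942644 to 108961630), Zhx2 (chromosome 15, 57694665 to 57839832) and Zbtb20 (chromosome 16, 42875881 to 43642602) are protein-coding genes on the plus strand. Promoter windows of 300 bases, 250 before the RefSeq start and 50 after it, were found for 7 of the 9 genes. They are shown for the neighbours Afp and Alb, whose levels differ so widely, and for Gpc3 and Igdcc4, which were higher in KO together with Afp. Capitals mark exact matches, on either strand, to GTTAAT or GTTAAC (letters within the known binding sequence of the hepatocyte factor Hnf1), to CCAAT and to TATAAA, and the sequences are from RefSeq on GRCm38.p6, 5′ to 3′ on the gene's strand.
Afp, chr5:90490464-90490763, plus strand: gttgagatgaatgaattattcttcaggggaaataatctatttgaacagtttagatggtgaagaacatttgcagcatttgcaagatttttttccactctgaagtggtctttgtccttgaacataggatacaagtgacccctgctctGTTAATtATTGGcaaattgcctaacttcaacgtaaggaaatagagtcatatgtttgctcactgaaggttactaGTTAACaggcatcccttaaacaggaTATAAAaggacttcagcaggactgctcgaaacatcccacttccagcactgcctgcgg
Alb, chr5:90460620-90460919, plus strand: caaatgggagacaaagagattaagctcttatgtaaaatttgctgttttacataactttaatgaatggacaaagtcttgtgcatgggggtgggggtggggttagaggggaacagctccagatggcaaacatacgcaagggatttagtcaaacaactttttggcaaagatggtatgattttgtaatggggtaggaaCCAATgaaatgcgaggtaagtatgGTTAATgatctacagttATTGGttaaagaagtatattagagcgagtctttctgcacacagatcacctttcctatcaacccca
Gpc3, chrX:52613925-52614224, minus strand: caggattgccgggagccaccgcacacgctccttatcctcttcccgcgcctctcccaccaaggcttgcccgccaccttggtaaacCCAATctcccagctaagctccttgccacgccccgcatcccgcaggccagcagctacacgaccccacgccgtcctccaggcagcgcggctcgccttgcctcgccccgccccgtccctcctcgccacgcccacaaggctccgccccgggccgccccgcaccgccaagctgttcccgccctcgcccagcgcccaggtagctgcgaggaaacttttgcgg
Igdcc4, chr9:65101236-65101535, plus strand: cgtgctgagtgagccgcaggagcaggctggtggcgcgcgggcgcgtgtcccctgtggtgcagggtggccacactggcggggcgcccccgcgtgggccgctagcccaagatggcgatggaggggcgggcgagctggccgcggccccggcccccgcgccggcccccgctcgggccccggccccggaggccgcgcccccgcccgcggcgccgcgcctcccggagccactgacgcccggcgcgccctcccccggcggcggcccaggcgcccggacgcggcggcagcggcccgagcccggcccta

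The windows of Afp and Alb were alike in composition, each with 40.0% G and C and 3 CpG pairs. That of Afp held 4 matches with no overlap: GTTAAT, then the CCAAT letters on the other strand, then nearer the start GTTAAC, which reads the same on both strands, and last TATAAA. That of Alb held GTTAAT once and the CCAAT letters once on each strand. GTTAAT or GTTAAC, on either strand, was present in 9.85% of 32851 promoter windows of this length, CCAAT in 37.4% and TATAAA in 13.6%. The Gpc3 window was 70.7% G and C with 30 CpG pairs and 1 CCAAT match, and the Igdcc4 window 84.7% G and C with 49 CpG pairs and 0 matches. The Bex1 window was 61.3% G and C with 8 CpG pairs and 0 matches. The Zbtb20 window held GTTAAC once and CCAAT once. That window, at 43247034 to 43247333 on chromosome 16, lies inside the GENCODE span of the gene and not at its first base, 42875881. The same holds for the Zfhx3 window, at 108714394 to 108714693 on chromosome 8, where the first base of the gene is 107942644. The Zfhx3 window was 67.3% G and C with 21 CpG pairs and 0 matches. The 4 genes that were higher in KO thus have promoters both poor and rich in CpG. GENCODE places the start of Afp 23 bases further downstream than RefSeq, that of Alb 27 and that of Gpc3 24. A match is a description of letters, not a measured binding site.

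Afp, Gpc3, Igdcc4 and Bex1 were higher in KO livers, by 2.54-fold to 10.4-fold on the log2(normalized count + 1) scale, while the Cd24a levels of KO livers lay below, within and above the WT range. Of the 9 genes, these 4 lay past the threshold of the all-gene fit, all higher in KO, where 1.75% of the genes tested did so in that direction. In the authors' deposited table an adjusted p under 0.05 stood beside 5 of the 9, these 4 and Zhx2, where 8.68% of the genes with an adjusted p did. The range of KO livers lay clear of that of WT livers in 3 of the 9, Afp, Gpc3 and Bex1, as it did in 2.96% of genes tested. Nothing is read from these counts, because the genes were chosen with the contrast in view. In bulk RNA, more cells of a type and more RNA per cell cannot be told apart.

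Afp, which encodes alpha-fetoprotein, had a lowest level of 254 normalized counts in KO, a median of 470.5 and a highest of 1397, against 114, 126 and 165 in WT. Even the lowest KO liver exceeded the highest WT liver, and KO 1 stood far above the other KO livers. The mean was 587 ± 422 normalized counts in KO and 134 ± 21.4 in WT (SD, n = 6 each), a log2 difference of 1.89 (SE 0.329). Without KO 1 the log2 difference was 1.59. The spread also differed: the highest KO liver had 5.50 times the level of the lowest, and the highest WT liver 1.45 times that of the lowest WT liver. In every one of the 6 WT livers Afp was detected, with 117 to 140 reads.

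Gpc3 encodes glypican 3, a heparan sulfate proteoglycan of the cell surface that is abundant in fetal liver and in liver cancers. Its level was 912 normalized counts in the lowest KO liver, 1492 at the KO median and 2585 in the highest, against 485, 586 and 768 in WT. The groups did not overlap, with KO 1 and KO 2 highest and KO 3 lowest among KO livers. The means were 1639 ± 651 in KO and 611 ± 104 in WT (SD, n = 6 each), a log2 difference of 1.34 (SE 0.226).

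Igdcc4 encodes a surface protein of the immunoglobulin superfamily, also called Nope, that marks fetal liver progenitors in the mouse. It ran from 56.5 normalized counts in KO 5 through a KO median of 308 to 580.02 in KO 2, against 9.76, 19.9 and 76.3 in WT. KO 5 lay below WT 6, so the groups overlapped in this pair, and the other 5 KO livers lay above all WT livers. The means were 325 ± 232 in KO and 28.0 ± 24.5 in WT (SD, n = 6 each), a log2 difference of 3.38 (SE 0.599). WT 6, which held the fat transcripts named above, had 80 reads of Igdcc4, against 10 to 24 in the other WT livers. The log2 difference was 3.72 without WT 6, 3.12 without KO 2 and 3.47 with both left out. Whether the fat transcripts bear on Igdcc4 was not tested.

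Bex1 encodes a small X-linked signalling adaptor, best known in neurons and in regenerating tissue. It had 58.4 normalized counts in the lowest KO liver, a KO median of 97.7 and 195 in the highest, against 9.53, 21.5 and 38.8 in WT. Every KO liver exceeded every WT liver, and KO 4 was highest. The means were 105 ± 50.7 in KO and 22.5 ± 9.60 in WT (SD, n = 6 each), a log2 difference of 2.15 (SE 0.335). The levels rest on few reads, 660 over the KO livers and 126 over the WT livers. In GENCODE M21, 223 of its 1186 exon bases (18.8%) are shared with Tceal7, which averaged under 1 normalized count, and the sources used here do not name the counting annotation.

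Cd24a encodes a small glycoprotein anchored in the membrane, found on fetal liver progenitors, bile duct cells and developing blood cells. It had 79.8 normalized counts in the lowest KO liver, a KO median of 239 and 318 in the highest, against 134, 229 and 294 in WT. KO livers lay both above and below the whole WT range, 1 above it and 2 below. The means were 215 ± 94.1 in KO and 227 ± 54.7 in WT (SD, n = 6 each), a log2 difference of −0.19 (SE 0.315, with an interval of −0.81 to 0.43 at 95% confidence). Without KO 1, the lowest liver, the log2 difference changed sign to 0.066. KO 1 was also the liver with the lowest sums of the endothelial list (3666 normalized counts, against at least 5203 in the others) and of the stellate list (12370, against at least 15546). The part of these cells in the Cd24a level was not tested.

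**Figure D1:**
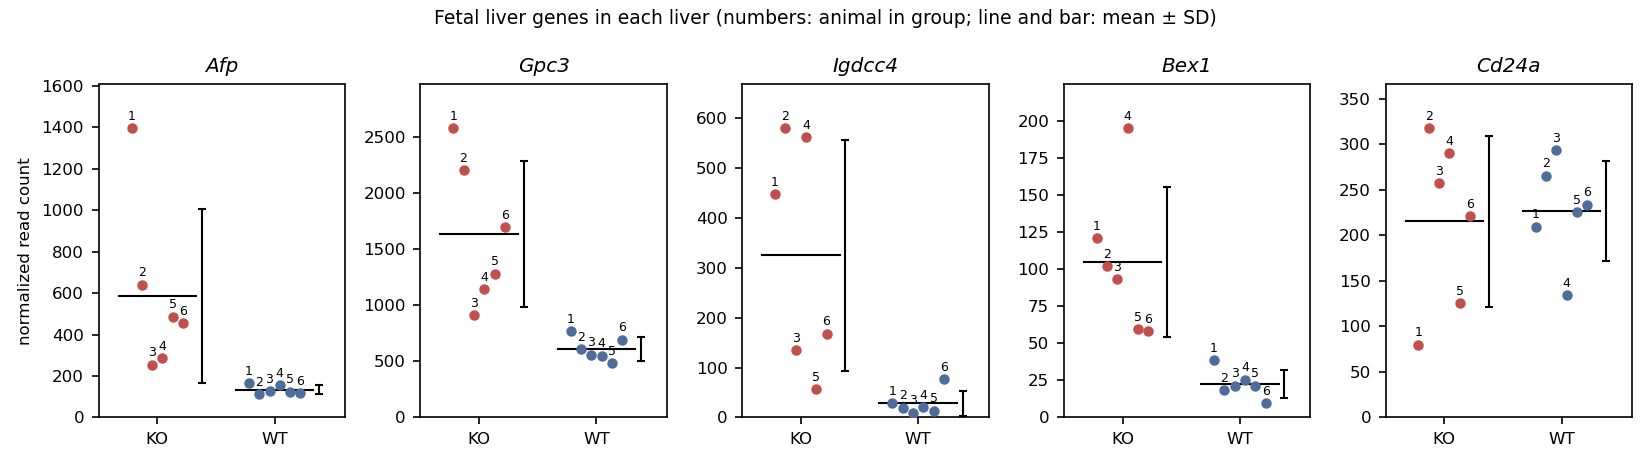
Normalized read counts (vertical axes, each from 0) of 5 fetal liver genes in the 6 KO and 6 WT livers, each point a liver with its number, the line the mean and the bar the SD. Afp, Gpc3 and Bex1 do not overlap between groups, Igdcc4 overlaps through KO 5 and WT 6, and for Cd24a 2 KO livers lie below the WT range, 1 above it and 3 within it.

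The 4 higher genes did not share 1 order over the KO livers. KO 1 and KO 2 were the highest for Afp and Gpc3 and KO 3 the lowest for both. Of all livers, KO 1 and KO 2 also had the highest sums of the hepatocyte list (1210154 and 1424484 normalized counts). Their sums of the stellate list were the lowest (12370 and 15546). The hepatocyte sum of KO 2 drew on the fibrinogen gene Fgb. In that liver Fgb reached 458450 normalized counts, against a KO median of 209373 and a WT high of 276924. For Igdcc4 the highest were KO 2 and KO 4, with KO 5 lowest, and for Bex1 the highest were KO 4 and KO 1, with KO 6 lowest. KO 4, the liver rich in neutrophil transcripts, thus had 20.1 times the WT mean of Igdcc4 and 8.67 times that of Bex1, but 2.13 times that of Afp and 1.88 times that of Gpc3. KO 5 had 3.64 times the WT mean of Afp but 2.02 times that of Igdcc4. Within WT, the Igdcc4 level of WT 6 was 2.73 times the WT mean while its Afp level was 0.875 times and its Bex1 level 0.423 times. The part of neutrophil transcripts in KO 4 was not tested, nor was that of the cell makeup of KO 1 and KO 2.

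**Figure D2:**
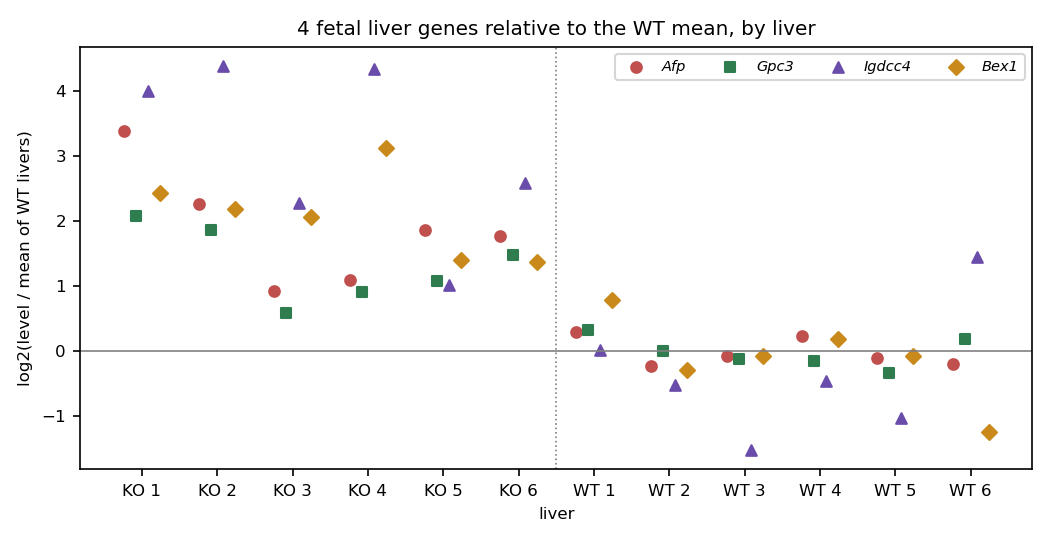
Level of Afp, Gpc3, Igdcc4 and Bex1 in each liver relative to the mean of the WT livers, on a log2 scale (vertical axis), with the 6 KO livers left of the dotted line and the 6 WT livers right of it. In KO 4 Igdcc4 is at 20.1 times and Afp at 2.13 times the WT mean, and in KO 1 Afp is at 10.4 times.

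The labels give each mouse a number, and these fall into runs of neighbouring numbers, of which 3 hold both genotypes. In the run with KO 1 and WT 1, KO over WT was 8.49 for Afp, 3.37 for Gpc3, 15.9 for Igdcc4 and 3.12 for Bex1. In the run with KO 2, KO 3, KO 4 and WT 4 the ratios of means were 2.51, 2.58, 20.9 and 5.11 for the same genes in that order. In the run with KO 5, KO 6, WT 5 and WT 6 they were 3.89, 2.53, 2.50 and 3.80. Each of the 4 genes was thus higher in KO within all 3 runs, while Igdcc4 ranged widest between them. With the runs as a block in the limma fit, Afp, Gpc3 and Bex1 stayed past the threshold and Igdcc4 did not, at a log2 difference of 2.92. That is a description as well, because the genes were chosen with the contrast in view.

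Albumin, the most abundant of the 9 transcripts, took 9.62 ± 1.32% of all counts in KO and 10.5 ± 0.515% in WT (SD, n = 6 each). It had 2229511 normalized counts in the lowest KO liver, a KO median of 2671254 and 3011825 in the highest, against 2713201, 2897498 and 3020889 in WT. The KO livers KO 2, KO 4 and KO 5 lay below all WT livers, and the other 3 lay within the WT range. The means were 2663835 ± 329029 in KO and 2877695 ± 120458 in WT (SD, n = 6 each), a log2 difference of −0.12 (SE 0.344, with an interval of −0.79 to 0.56 at 95% confidence). That SE draws on the spread of other abundant genes.

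Set per kilobase of exon, Afp reached 15.1 ± 9.68 for each 100000 of Alb in KO and 3.24 ± 0.520 in WT (SD, n = 6 each). The ratio lay between 5.87 and 32.9 in KO and between 2.72 and 3.95 in WT, so the groups did not overlap. Alpha-fetoprotein RNA was therefore a trace beside albumin RNA in every liver of either genotype.

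On the same scale, normalized counts per kilobase of exon, the order of levels in KO was Alb, Gpc3 (609 ± 242), Afp (174 ± 125), Bex1 (88.5 ± 42.7), Cd24a (83.4 ± 36.5) and Igdcc4 (34.3 ± 24.4). In WT it was Alb, Gpc3 (227 ± 38.5), Cd24a (87.9 ± 21.2), Afp (39.8 ± 6.34), Bex1 (18.999 ± 8.10) and Igdcc4 (2.95 ± 2.58; SD, n = 6 each). In KO the SDs of neighbours overlapped from Afp down to Igdcc4, whereas in WT the SDs of neighbours did not overlap. Afp ranked above Cd24a in KO and below it in WT.

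The repressor genes were each expressed in all 12 livers. Zhx2 had 316 normalized counts in the lowest KO liver, a KO median of 341 and 374.1 in the highest, against 373.9, 395 and 488 in WT. The groups touched only where KO 2 (374.1) stood just above WT 1 (373.9), and the other 5 KO livers lay below all WT livers. The means were 342 ± 19.7 in KO and 414 ± 44.9 in WT (SD, n = 6 each), a log2 difference of −0.27 (SE 0.0775). This small difference lay past an adjusted p of 0.05 in the authors' deposited table and not in limma. Among the 22 alternatives it lay past the threshold with DESeq2 and with every library scaled to an equal total, and the log2 difference ran from −0.32 to −0.22. Within the 3 mixed runs KO over WT was 0.925, 0.772 and 0.766.

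Zfhx3 had 238 normalized counts in the lowest KO liver, a KO median of 281 and 309.99 in the highest, against 251, 291 and 333 in WT, and the groups overlapped over most of their range. The means were 282 ± 25.6 in KO and 292 ± 32.7 in WT (SD, n = 6 each), a log2 difference of −0.05 (SE 0.0908, with an interval of −0.23 to 0.13 at 95% confidence). With WT 6 and KO 2 both left out its sign turned, to 0.037.

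Zbtb20 was the lowest of the 3, with 25.4 normalized counts in the lowest KO liver, a KO median of 28.9 and 34.9 in the highest, against 30.1, 38.9 and 51.0 in WT. The KO livers KO 1, KO 2, KO 4 and KO 5 lay below all WT livers, and KO 3 and KO 6 lay between WT 2 and the other WT livers. The means were 29.8 ± 4.16 in KO and 39.8 ± 6.75 in WT (SD, n = 6 each), a log2 difference of −0.40 (SE 0.152). That level rests on 190 reads over the KO livers and 227 over the WT livers, spread over 30730 exon bases in GENCODE M21. Per kilobase of exon the order was Zhx2 (77.1 ± 4.44 normalized counts in KO and 93.4 ± 10.1 in WT), Zfhx3 (13.4 ± 1.22 and 13.9 ± 1.56 in KO and WT) and Zbtb20 (0.969 ± 0.136 and 1.30 ± 0.220 in KO and WT; SD, n = 6 each), with no overlap of the SDs between neighbours. The sources used here do not say which Zbtb20 transcripts were counted.

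**Figure D3:**
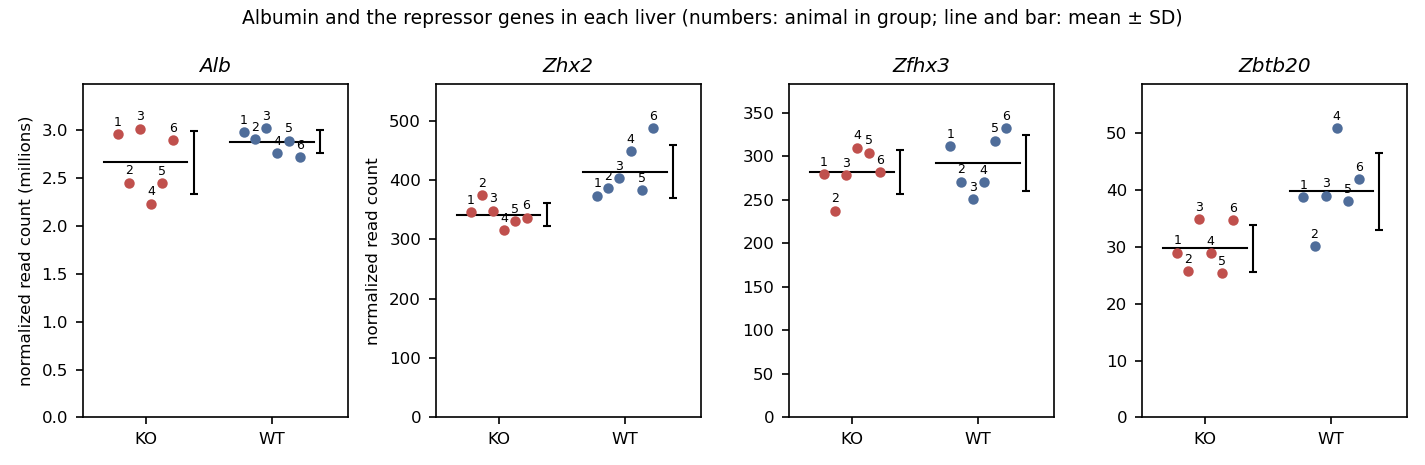
Normalized read counts (vertical axes, each from 0, with the scale of Alb given on its axis) of Alb, Zhx2, Zfhx3 and Zbtb20 in the 6 KO and 6 WT livers, each point a liver with its number, the line the mean and the bar the SD. Zhx2 averaged 342 in KO and 414 in WT, and Zfhx3 overlaps over most of its range.

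The close relatives of these genes were read from the same fit. In the albumin family, Afm, the gene of afamin downstream of Afp, measured 7942 ± 1412 normalized counts in KO and 9838 ± 694 in WT (adjusted p = 0.104), and Gc, which encodes the vitamin D binding protein, 166137 ± 9589 in KO and 173132 ± 8685 in WT (SD, n = 6 each; adjusted p = 0.789, limma). Among 5 relatives of the repressors 0 passed in limma, 2 had an unadjusted p under 0.05 (23.4% of all genes tested did), and edgeR and DESeq2 called 0. Zhx1 measured 1109 ± 83.7 normalized counts in KO and 1054 ± 93.0 in WT, and Zhx3, its other family member, 436 ± 88.9 in KO and 357 ± 51.9 in WT (SD, n = 6 each; adjusted p = 0.568 and 0.242, limma). Zfhx2 reached 1435 normalized counts in KO 2 alone, against 184 as the KO minimum and 139 to 293 in WT (adjusted p = 0.204, limma). Without WT 6, alone or with KO 2, 1 of these relatives passed.

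Among 5 tested genes of the glypicans and Notum, a secreted enzyme that acts on Wnt proteins, 0 passed in limma, 2 had an unadjusted p under 0.05 (23.4% over all genes), edgeR called 0 and DESeq2 called 1. Gpc4 measured 1799 ± 353 normalized counts in KO and 1767 ± 152 in WT (adjusted p = 0.968), Notum 1519 ± 465 in KO and 1440 ± 284 in WT (adjusted p = 0.926), and Gpc6 166 ± 51.7 in KO and 232 ± 23.2 in WT (SD, n = 6 each; adjusted p = 0.123, limma). Of the relatives of Igdcc4, Neo1, the gene of the receptor neogenin, was alone in reaching a mean of 10, at 405 ± 34.2 normalized counts in KO and 431 ± 56.4 in WT (SD, n = 6 each; adjusted p = 0.631, limma). Prtg measured 7.05 ± 3.94 in KO and 7.01 ± 2.50 in WT, and Igdcc3 at most 1.04 in any liver.

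Of 5 tested genes of the Bex and Tceal families, 1 rose (1.75% of all genes tested did). Tceal5, an X-linked relative of Bex1, rose 3.14-fold, to 77.4 ± 28.7 normalized counts in KO against 25.4 ± 11.8 in WT (SD, n = 6 each; adjusted p = 0.0269, limma), a log2 change of 1.65 (SE 0.365), and the groups did not overlap. The call ended without KO 1, KO 4, WT 3 or WT 5 and with the runs as a block, at adjusted p up to 0.0681. Bex4 measured 104 ± 35.2 normalized counts in KO and 85.6 ± 12.4 in WT, and Tceal8 1367 ± 143 in KO and 1565 ± 118 in WT (SD, n = 6 each; adjusted p = 0.494 and 0.151, limma).

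Of 18 other genes of fetal and neonatal liver with a mean of at least 10, 7 rose, 0 fell and 11 did not pass. Over all genes tested 1.75% rose and 2.68% fell. The median log2 change was 0.51, against 0.01 over all genes tested. Nothing is read from these values, because the list was chosen with earlier results of these data known. Tff3, which encodes a secreted trefoil peptide, rose 5.30-fold, to 1956 ± 1088 normalized counts in KO against 332 ± 109 in WT (adjusted p = 0.00531), and Grb10, an imprinted gene of an adaptor that damps insulin and growth factor signals, rose 1.35-fold, to 1083 ± 97.3 in KO against 804 ± 54.4 in WT (SD, n = 6 each; adjusted p = 0.00569, limma). The groups did not overlap for either gene. Lpl, the lipoprotein lipase gene, which the liver expresses around birth, rose 1.63-fold, to 17774 ± 2901 in KO against 10988 ± 2259 in WT, and Peg3, an imprinted zinc finger gene, 2.37-fold, to 378 ± 172 in KO against 152 ± 41.9 in WT (SD, n = 6 each; adjusted p = 0.0184 and 0.0243, limma). With the runs as a block Lpl and Peg3 were no longer called (adjusted p = 0.0821 and 0.126), and Peg3 was also not called without KO 1, KO 4, WT 2, WT 3 or WT 4.

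The other 3 that rose, named after their values were seen, were H19, an imprinted long noncoding RNA (3.46-fold), Igf2bp2, an RNA-binding protein gene (1.94-fold), and Aldoa, the aldolase form of fetal liver and muscle (1.55-fold), with adjusted p of 0.0480, 0.0426 and 0.0409 (limma). Each of these calls ended under 11 or more of 22 alternatives, with adjusted p up to 0.112. Igf2, the fetal growth factor gene beside H19, was named in the same way and measured 763 ± 332 normalized counts in KO and 285 ± 141 in WT (SD, n = 6 each; adjusted p = 0.0555, limma). The count of 7 was 3 with the runs as a block and without KO 1, WT 2, WT 3 or WT 4. It was 4 without KO 3, KO 4, WT 1 or WT 5, and 7 with WT 6 and KO 2 both left out. In 4 further genes of the list the mean was under 10, and Lin28b, Igf2bp1, Hmga2 and Sall4, genes of early development, were not tested.

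Genes that are known to change with Zhx2 in mouse liver, other than Afp and Gpc3, were not sorted by the direction known for each. Of 9 tested, 3 rose (Tff3, H19 and Lpl, which also belong to the fetal list), 3 fell and 3 did not pass. All 9 had an unadjusted p under 0.05 in limma (23.4% of all genes tested did). Over all genes tested 1.75% rose and 2.68% fell. The median log2 change was −1.39, against 0.01 over all genes, and is not read because directions were not sorted. Nothing is read from the counts either, because the list was chosen with earlier results of these data known. Mup3, a major urinary protein gene, fell 18.7-fold, to 267 ± 200 normalized counts in KO against 3952 ± 1490 in WT (SD, n = 6 each; adjusted p = 0.00151, limma), but it belongs to a family of near copies that can share reads. Cyp2a4, a steroid hydroxylase gene, fell 6.25-fold, to 337 ± 258 in KO against 1973 ± 1057 in WT (SD, n = 6 each; adjusted p = 0.00554, limma), a call that ended with the runs as a block (adjusted p = 0.0610), and it has a near copy as well. The cyclin gene Ccna2, named after its values were seen, fell 2.62-fold (adjusted p = 0.0432, limma), a call that ended under 12 of 22 alternatives. The count of 6 was 3 with the block and 4 without KO 1, KO 4, WT 1, WT 2, WT 3, WT 4 or WT 5, and 4 with equal totals.

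**Figure D4:**
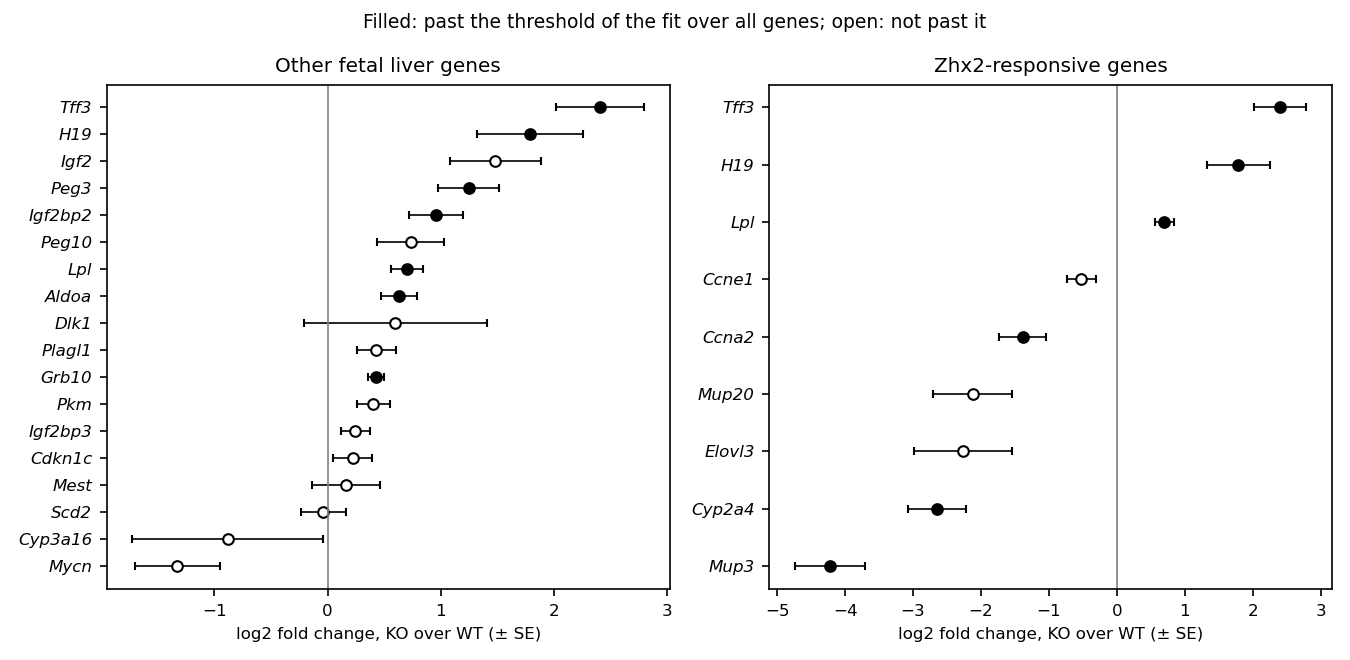
Log2 fold change, KO over WT, with its SE (horizontal axis) of the tested genes of the other fetal liver list (left, 18 genes) and of genes known to respond to Zhx2 (right, 9 genes), filled where the adjusted p over all genes is under 0.05. In the fetal list 7 genes are filled and all 7 are higher in KO, and in the Zhx2 list 3 filled genes are higher and 3 lower.

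The factors that drive Afp and Alb in hepatocytes and their progenitors showed 0 calls among 22 tested genes in limma and in edgeR. Unadjusted p was under 0.05 for 6 of them, a share near the 23.4% of all genes tested. DESeq2 called 2, limma called 1 without WT 6, and the median log2 change was −0.05. Hnf4a, the central hepatocyte nuclear receptor, measured 20615 ± 5472 normalized counts in KO and 21334 ± 2958 in WT (adjusted p = 0.823). Cebpa, a factor of mature hepatocytes, measured 6979 ± 1019 in KO and 6691 ± 1243 in WT (SD, n = 6 each; adjusted p = 0.791, limma). Ctnnb1, which encodes beta-catenin, measured 7377 ± 416 in KO and 8328 ± 441 in WT, and although the groups did not overlap the adjusted p was 0.0964 (SD, n = 6 each, limma). DESeq2 on the recovered reads called it (adjusted p = 0.0202).

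Genes of mature hepatocytes showed 0 calls among 26 tested genes in limma and in edgeR, with 5 at an unadjusted p under 0.05 (23.4% over all genes), 2 called by DESeq2 and 1 by limma without KO 6. Of the 26, 20 were higher and 6 lower in KO, where 51.8% of all genes tested were higher, with a median log2 change of 0.17. The transferrin gene Trf measured 717915 ± 80666 normalized counts in KO and 634813 ± 77120 in WT (adjusted p = 0.634). Ahsg, the fetuin-A gene, measured 708896 ± 79483 in KO and 583346 ± 47172 in WT (adjusted p = 0.404), and Apoa1, the apolipoprotein gene of high density lipoprotein, 290049 ± 31622 in KO and 256623 ± 31792 in WT (SD, n = 6 each; adjusted p = 0.508, limma). DESeq2 on the recovered reads called Ahsg (adjusted p = 0.0178).

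Marker lists of other cell types were summed in each liver, since fetal genes are also known from bile duct and blood progenitors. The ductal list, 10 of 10 genes in the table, summed to between 1370 and 2622 normalized counts in KO and between 2095 and 2863 in WT. Of its 8 tested genes Prom1, a progenitor and duct gene named after its values were seen, fell 2.83-fold (adjusted p = 0.00697, limma), and Epcam, Krt19 and Sox9, its defining markers, did not pass. The erythroid list, 7 of 9 in the table, summed to between 672 and 1651 in KO and between 809 and 2284 in WT.

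The B cell list, 6 of 6 in the table, summed to between 111 and 327 normalized counts in KO and between 158 and 350 in WT. The neutrophil list, 6 of 7, summed to between 523 and 5600.03 in KO and between 568 and 1436 in WT. The stellate list, 7 of 7, summed to between 12370 and 25211 in KO and between 20171 and 29241 in WT, with all 7 genes lower in KO, where 51.8% of all genes tested were higher. Of the 7, limma and edgeR called 0 and DESeq2 2, and 4 had an unadjusted p under 0.05 (23.4% over all genes). The endothelial list, 5 of 5, lay between 3666 and 7436 in KO and between 5203 and 8428 in WT, and the Kupffer list, 4 of 5, between 13414 and 19557 in KO and between 12154 and 21111 in WT. The pancreas list, 3 of 6, lay between 131 and 280 in KO and between 273 and 503 in WT. Of its 2 tested genes Cela1, named after its values were seen, fell 2.18-fold (adjusted p = 0.00533, limma), where 2.68% of all genes tested fell. Reg1 and Ctrb1 were at 0 in every WT liver, so the sum in WT was that of Cela1 alone. In KO 2 Reg1 reached 126 normalized counts and Ctrb1 26.7, the highest of any liver. Cela1 alone lay between 128 and 213 in KO and between 273 and 503 in WT, with no overlap. Every one of these sums overlapped between the groups, that of the pancreas list only through KO 2 (280, against at most 213 in the other KO livers). None of the markers in the table was at 0 in all livers, and the part of these cells in the levels of Afp, Gpc3, Igdcc4 and Bex1 was not tested.

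The genes whose pattern was most like that of each of the 9 were sought among 11098 genes with a mean of at least 50, by Pearson correlation of log2 values over the 12 livers after the mean of each genotype was taken off. Since the highest of so many values are taken, the coefficients are a description, with no test. For Afp these were Nit1 (r = 0.901), Med25 (0.884), Hyal2 (0.866), Mocs1 (0.863) and Mfsd3 (0.861). Without KO 1 and KO 3, the livers farthest from the median of Afp, r was between 0.580 and 0.817 for these 5 genes, so the likeness rested in part on those livers. For Gpc3 they were Bag4 (0.948), Clmn, Zfp612, Ube4b and Wdr26, for Igdcc4 Cxxc5 (0.943), Pafah1b3, Zfp318, Acd and Cyp3a13, and for Bex1 Fxr2 (0.966), Neu3, Dnajb4, Lrch3 and Rnf11. For Cd24a they were Slc25a24 (0.954), Lbh, Amigo1, Atp8b2 and Dpysl3, and for Alb Evc (0.854), Gga1, Zfp952, its neighbour in the cluster Afm (0.821), and Ormdl1. For Zhx2 they were Rnase4 (0.922), C4bp, Flad1, Galk2 and Ang, for Zfhx3 Ppp2r3a (0.933), Chrna2, Hnrnpr, Rpa3 and Psmg2, and for Zbtb20 Mettl9 (0.928), Commd2, Tsn, Nsmce1 and Tmem120b.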

How the data were processed

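Livers of 12 mice were grouped by the genotype in the labels, and each animal has its own number there. FastQC, STAR, featureCounts, DESeq2 and mm10 are listed in the submitters' processing notes, without versions. The deposited signal is normalized counts per gene, made by the authors with 1 scaling factor per library. In each library 100% of values were whole multiples of the smallest one, within 0.001 reads, which gave back the reads. A further deposited table holds the authors' own comparison, with log2 fold changes and p-values. Annotation, strand setting and filters of the counting are not stated in the sources used here.

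Values were moved to log2(normalized count + 1), and genes that averaged 10 or more were fitted with limma 3.58.1 (R 4.3.3), using a variance trend and genotype alone. Adjusted p-values (Benjamini-Hochberg, two-sided) cover all genes tested, with a threshold of 0.05. In limma they weigh the difference between groups against the spread between animals, drawn towards a trend over other genes. Alternatives were pseudocounts of 0.5 and 10, no filter or a minimum of 50, scaling to equal totals or to upper quartiles, a block for runs of animal numbers (broken at gaps of 10), omission of each library, and DESeq2 1.42.0 and edgeR 4.0.16 on the reads. Omission of WT 6 with KO 2 was added after seeing the data. The procedure was tested on simulated counts that took the spread of WT livers for both groups and held no run effect. That test does not cover a wider spread in KO livers or differences between runs. The 9 genes and all lists were chosen with earlier results of these data known. Named are these genes, Lcorl, per list up to 4 called genes of smallest p (with under 2 called, the 3 of highest level), and the 5 genes most alike.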

Additional observations from a re-analysis of the deposited data

Results flagged for a closer look

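A sample was looked at again when its gap to the nearest of the other 5 in its group exceeded 0.625 of the group's whole range. This was tested in 84 groups, of which chance marks about 1 in 20. It held for Afp in KO 1, at 1397 normalized counts (gap 0.661 of the range), and for Igdcc4 in WT 6, at 76.3 (0.722). Lcorl in KO 5, at 2.83, stood apart because the other KO livers had 0 (gap 1 of the range), as did Igdcc3 in WT 2, at 0.972, which is a single read (1 of the range).

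In KO 2, Zfhx2 reached 1435 normalized counts (gap 0.798 of the range), Hnf4a 31075 (0.668) and Gpc4 2496 (0.731). In KO 1, Ctnnb1 was low at 6596 (0.663) and Bex4 high at 171 (0.649). Cyp2a4 was high in KO 6, at 837 (0.652), Cebpa in WT 3, at 9104 (0.706), and Ccna2 in WT 1, at 906 (0.738). Apoa1 was low in WT 4, at 193085 (0.786).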

How the results depend on the processing

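Afp, Gpc3 and Bex1 kept their direction and their side of the threshold in all 22 alternatives, with log2 differences from 1.59 to 2.13, 1.19 to 1.49 and 1.77 to 2.32. These genes were chosen with this contrast known, so their side of the threshold is a description and no test. The number of genes past the threshold, 601 with all livers, was 158 with the animal number runs as a block, 1349 with DESeq2, 917 with WT 6 and KO 2 both left out, and between 224 and 933 when 1 library was left out. The cause was not tested.

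Signs turned for genes with differences near 0. When 1 library was left out, log2 differences ran from −0.33 to 0.066 for Cd24a, above 0 without KO 1, and from −0.0010 to 0.16 for Cebpa, below 0 without KO 1. They ran from −0.060 to 0.16 for Notum, below 0 without KO 1, KO 6 or WT 1, and from −0.087 to 0.050 for Gpc4, below 0 without KO 2 or WT 4. Gpc4 was also at −0.0094 with equal totals and at −0.067 with WT 6 and KO 2 both left out, where Zfhx3 was at 0.037. Zbtb20 gave no value at a minimum of 50.

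No paired analysis was possible because the labels give animal numbers and no replicate numbers shared by the groups. Depth limits Bex1, Zbtb20 and Igdcc4 most, at 126, 227 and 164 reads over 6 WT livers.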
